A study of Mus musculus with 6 samples.

Results

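The genes described here are 35 nuclear hormone receptors and receptor coregulators, taken by gene name from a count table of 54532 genes. They comprise 31 receptors and 4 coregulators: the corepressor Ncor1 and the p160 coactivators Ncoa1, Ncoa2 and Ncoa3. Read counts per gene were measured by bulk RNA sequencing of the ischemic lobe of C57BL/6 mouse livers. The 3 IRF8-cKO libraries came from mice lacking IRF8 in hepatocytes and the 3 WT libraries from wild type mice. Both groups had undergone warm ischemia of 1 hour and reperfusion of 12 hours, so the lobes were injured in every library and no sham or uninjured liver is compared here. Neither the Cre driver nor the age and sex of the mice is given in the sources used here. Nothing in the labels says that each library was a separate animal, so the tests gauge only how far these libraries vary, which may be technical variation.

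Nuclear receptors are transcription factors that bind DNA through zinc fingers and change activity when a small lipophilic ligand, such as a fatty acid, oxysterol, bile acid, retinoid or steroid, enters the ligand-binding domain. Many of them act as heterodimers with a retinoid X receptor, and they exchange corepressors such as NCOR1 for coactivators of the p160 family on ligand binding. In hepatocytes they set lipid oxidation, bile acid and drug metabolism and the circadian and hormonal control of glucose output, and several orphan receptors without an established hormone keep hepatocyte identity. IRF8 is an interferon regulatory factor best known from myeloid cells.

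The libraries held 14758237 to 16805830 reads assigned to genes. Mitochondrial genes took 7.19% to 20.2% of the reads in WT and 5.99% to 7.14% in IRF8-cKO. These shares did not overlap, but WT-14 (7.19%) and IRF8-cKO-88 (7.14%) were nearly equal. Only WT-44 (20.2%) and WT-77 (14.5%) were clearly higher. The part of these shares in the differences below was not tested. Irf8 itself stood at 9.30, 9.48 and 10.3 CPM (reads scaled to library totals adjusted by the trimmed mean of M values, TMM) in WT, where values here and below are given in the order WT-14, then WT-44, then WT-77. It stood at 5.67, 6.71 and 4.16 CPM in the other group, in the order IRF8-cKO-71, then IRF8-cKO-88, then IRF8-cKO-106. All IRF8-cKO values were below all WT values, but the log2 difference of -0.81 (SE 0.33) did not pass the test (edgeR adjusted p = 0.174). Whole lobe also contains cells in which the gene was not targeted. Hepatocyte markers were abundant in all libraries (summed 70650 to 127100 CPM over 11 genes), while 5 of 8 tested neutrophil markers were lower in IRF8-cKO at adjusted p under 0.05, with sums of 183 to 225 CPM in WT and 23.4 to 53.2 CPM in IRF8-cKO. Of those 5 (S100a8, S100a9, Retnlg, Ngp and Ltf), 0 passed without WT-44 or without WT-77, and S100a8 alone did without IRF8-cKO-106. In bulk tissue, fewer cells of a type and less RNA per cell cannot be told apart.

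No receptor or coregulator passed the comparison of IRF8-cKO with WT livers (quasi-likelihood test of edgeR, adjusted p threshold 0.05). The closest was Thrb, the thyroid hormone receptor that predominates in liver, with 2.57-fold more normalised reads in IRF8-cKO. Of the 35 genes, 31 had enough reads to be tested, and 0 of 31 passed, against 182 of 13134 genes (1.39%, with 0.449% higher and 0.937% lower in IRF8-cKO). At an unadjusted p under 0.05 there were 8 of 31 (25.8%), beside 24.1% of all genes tested. Of these, 6 were higher (19.4%, beside 12.1%) and 2 lower (6.45%, beside 12.1%). By DESeq2 1 of the 31 passed, Thrb, where 4.67% of all genes passed as higher and 6.17% as lower, and by limma-voom 0 of 31 passed, where 0.289% of all genes passed as higher and 0.845% as lower. For 9 of the 31 (29.0%; 16.1% higher and 12.9% lower) the values of the groups were fully separated, as for 28.9% of all genes (14.4% and 14.5%). Counted in either direction, the shares at unadjusted p and by separation were thus near those of the whole table. Without the library IRF8-cKO-88, 4 of 31 passed: Thrb, Nr2f6 and Nr1h3 were higher (9.68%, against 4.21% of all genes) and Vdr was lower (3.23%, against 4.61%), for which that library held the only IRF8-cKO reads. With any of the other libraries left out 0 of 31 passed. The whole table then had 139 genes passing without WT-14, 1 without WT-44, 0 without WT-77, 143 without IRF8-cKO-71 and 20 without IRF8-cKO-106.

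**Figure D1:**
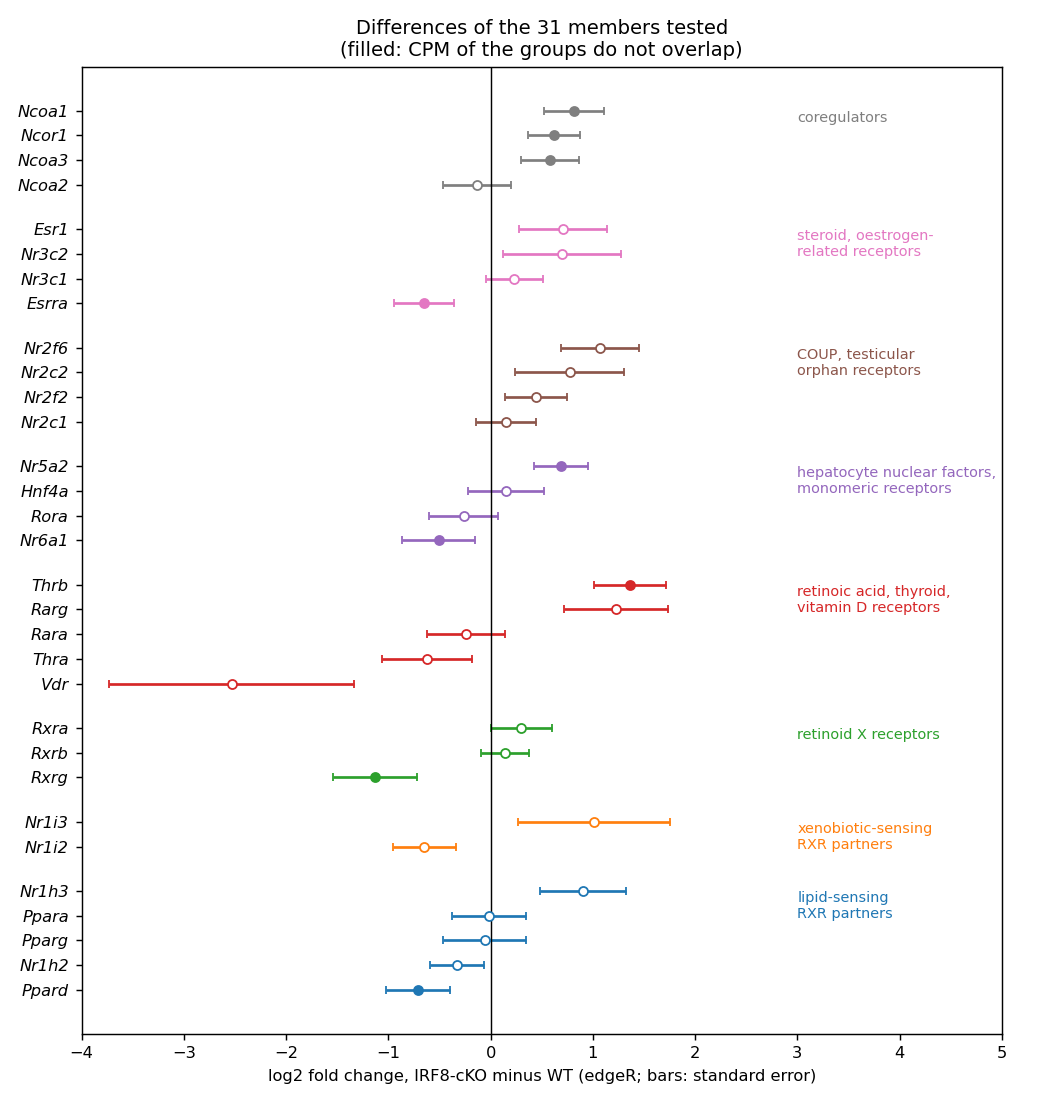
Log2 fold change (IRF8-cKO over WT, horizontal axis) of the 31 tested genes, grouped by role, with bars of 1 standard error and filled points where the CPM of the groups do not overlap. Values run from -2.53 for Vdr to 1.36 for Thrb and lie on both sides of 0.

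The median log2 fold change was 0.15 over the 31 tested genes and 0.03 over all genes tested, and 18 of the 31 (58.1%) were above 0, beside 51.5% of all genes. The 4 coregulators had a median of 0.60, with 3 above 0, and the 27 tested receptors a median of 0.15, with 15 above 0 and 12 below. With no filter on low counts, all 35 genes had a median of 0.26, with 22 above 0, and all genes with a read a median of -0.03. The genes varied between libraries of a group about as much as others did. The median SD of log2 CPM was 0.34 in WT and 0.41 in IRF8-cKO for the 31 genes, and 0.31 and 0.41 for all genes tested. Longer genes tended to have higher fold changes (Spearman's rho 0.196 across the 13134 genes, which share 6 libraries and are not independent), and the 31 genes had a median length of 5462 bases against 4132 for all genes.

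Levels were compared between genes per length, as TPM (reads per base of gene length, scaled to the same sum in each library) averaged over the 6 libraries. Hnf4a, the orphan receptor that maintains hepatocyte identity, was the most abundant at 363 TPM (166.9 to 529.9 over the libraries), followed by the heterodimer partner Rxra at 139.7 TPM (61.2 to 197.6). Hnf4a exceeded Rxra in all 6 libraries, and the pair held 51.4% to 68.3% of the TPM summed over all 35 genes. The oxysterol receptor Nr1h3 (48.4 TPM), the xenobiotic receptor Nr1i2 (46.4 TPM) and the fatty acid receptor Ppara (44.04 TPM) came next and lay closer together than the spread between libraries. Nr1h2 (27.8 TPM), Nr2f6 (18.8 TPM), Rxrb (16.3 TPM), Esrra (15.4 TPM), Nr5a2 (13.4 TPM), Ncor1 (12.1 TPM) and Nr3c1 (10.9 TPM) followed. The places of Esrra and Nr2f6 are uncertain. Esrra has a deposited length of 2539 bases, but its exons cover 4387 bases in the GENCODE M21 annotation, and a longer length lowers TPM. Nr2f6 shares 54.4% of its exons with Ocel1 on the opposite strand. At the other end, Vdr (0.313 TPM), Nr2f1 (0.210 TPM), Rarb (0.173 TPM), Esrrg (0.119 TPM) and Hnf4g (0.071 TPM) were barely covered. TPM of the IRF8-cKO libraries were higher across the table (median log2 ratio of group means 0.51 over all genes tested), so group differences in level were taken from TMM-scaled CPM, and TPM were set side by side between groups only as shares within a family.

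**Figure D2:**
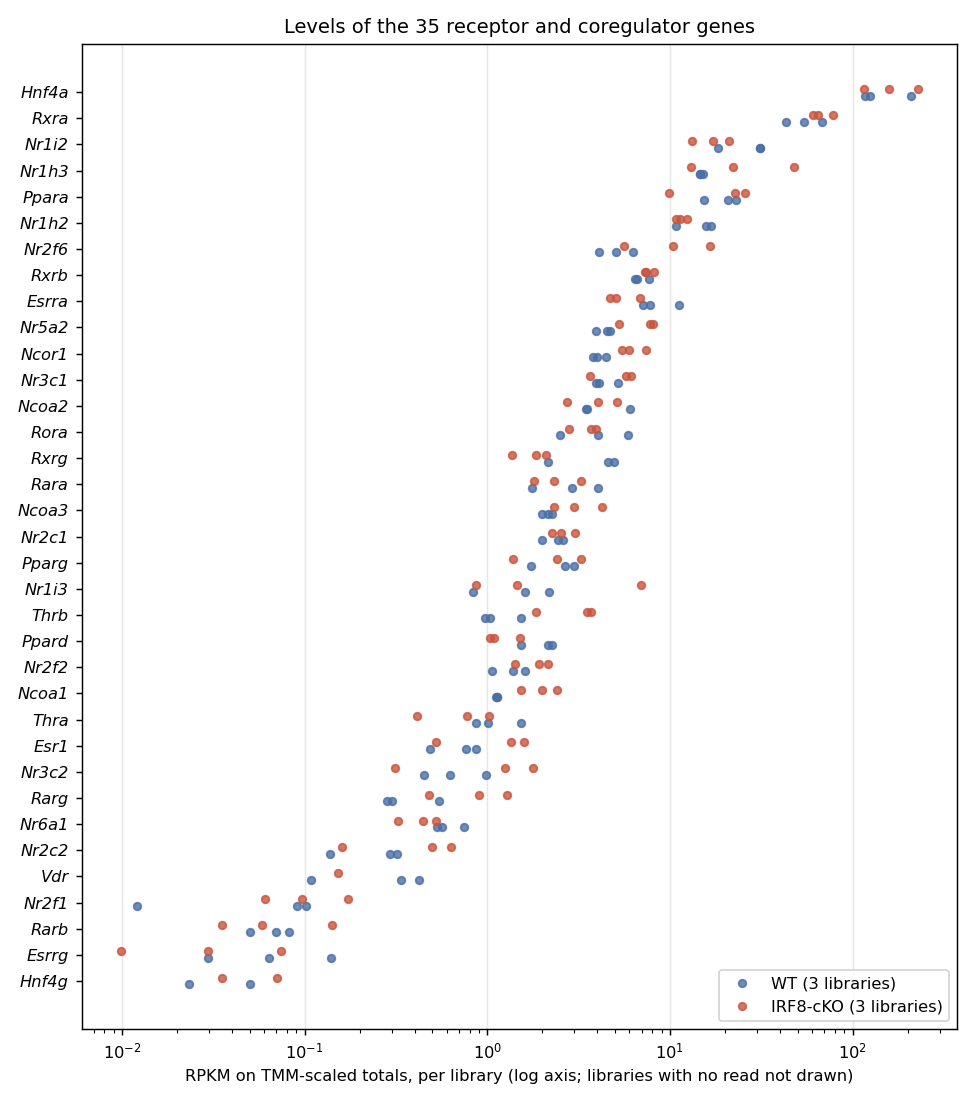
Level of each of the 35 genes in each library, as RPKM on TMM-scaled totals (log axis), with WT and IRF8-cKO libraries as separate symbols. Hnf4a and Rxra stand at the top, with means of 150.5 and 55.1 in WT and 167 and 68.0 in IRF8-cKO, and the symbols of the groups intermingle for most genes.

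Among the receptors for retinoic acid, thyroid hormone and vitamin D, Thrb (ENSMUSG00000021779, mm10 chr14:17660261-18038090, plus strand) stood at 11.3, 7.16 and 7.63 CPM in the WT libraries. It stood at 25.9, 13.7 and 27.4 CPM in the IRF8-cKO libraries. The lowest IRF8-cKO library was above the highest WT library. The means were 8.68 ± 2.25 CPM (SD, n = 3) and 22.4 ± 7.55 CPM (SD, n = 3), a log2 fold change of 1.36 (SE 0.35, unadjusted p = 0.00298, edgeR adjusted p = 0.0738). With each library left out in turn the log2 fold change ranged from 1.20 to 1.62 and the edgeR adjusted p from 0.0162 (without IRF8-cKO-88) to 0.268 (without WT-44). DESeq2 gave the same log2 fold change with an adjusted p of 0.0113, and limma-voom with library weights gave an adjusted p of 0.0469.

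Thra, which encodes the other thyroid hormone receptor, had a log2 fold change of -0.62 (SE 0.44, edgeR adjusted p = 0.406). The share of Thrb in the summed TPM of the pair was 63.8%, 48.9% and 40.1% in WT and 77.3%, 81.7% and 82.8% in IRF8-cKO. Every IRF8-cKO library thus had a larger Thrb share than any WT library. The mean share was 51.0% ± 12.0 (SD, n = 3) against 80.6% ± 2.89 (SD, n = 3), with a two-sided exact permutation p of 0.1, the smallest that 3 against 3 allows, and 0.5 after Benjamini-Hochberg adjustment over 25 such shares. Thra shares 263 exonic bases (5.70% of its own) with Nr1d1 on the opposite strand, a gene with 4385 reads over the libraries against 411 for Thra, and whether the counting used strand is not given in the sources used here. Nr1d1 was itself called lower in IRF8-cKO (log2 fold change -2.36), its mean being 83.25 CPM for WT and 16.24 CPM for IRF8-cKO. Thra CPM were 3.98, 4.66 and 7.1 for WT, rising in the same library order as Nr1d1. For IRF8-cKO they were 4.74, 1.91 and 3.56, and Thra was highest in IRF8-cKO-71, where Nr1d1 was lowest. How far Nr1d1 reads enter the Thra count, and through it the Thrb share, was not tested.

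Rarg, a retinoic acid receptor with few reads, stood at 1.29, 1.21 and 2.32 CPM in WT and 3.82, 2.03 and 5.46 CPM in IRF8-cKO. The groups overlapped through WT-77 and IRF8-cKO-88. Its log2 fold change was 1.23 (SE 0.51, unadjusted p = 0.0362, edgeR adjusted p = 0.181) and ranged from 0.87 to 1.59 with a library left out. Rara, the most abundant of the 3, stood at 7.71, 12.8 and 17.7 CPM in WT and 14.3, 7.89 and 10.2 CPM in IRF8-cKO. The Rara values overlapped widely (log2 fold change -0.24, SE 0.38, edgeR adjusted p = 0.730). Rarg held 14.1%, 8.61% and 11.7% of the TPM of the retinoic acid receptors in WT and 21.2%, 20.6% and 34.1% in IRF8-cKO, without overlap (two-sided exact permutation p = 0.1, the smallest possible, adjusted 0.5). Rarb was too low to test, with 3 to 16 reads per library.

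Vdr, the vitamin D receptor, is singled out after its values were seen. It had 10, 22 and 36 reads in WT and 0, 14 and 0 reads in IRF8-cKO. Both IRF8-cKO-71 and IRF8-cKO-106 were without a read, while IRF8-cKO-88, with 0.862 CPM, was above WT-14 with 0.612 CPM, so the groups overlapped. The fitted log2 fold change was -2.53 (SE 1.20, edgeR adjusted p = 0.229). The group means were 1.63 ± 0.917 CPM (SD, n = 3) in WT and 0.288 ± 0.498 CPM (SD, n = 3) in IRF8-cKO. Without IRF8-cKO-88 no IRF8-cKO read was left, so the call as lower in that fit (edgeR adjusted p = 0.0151) rests on a group at 0, and with a filter of at least 1 CPM in 3 libraries Vdr was not tested. In liver Vdr is known mainly from bile duct cells and other nonparenchymal cells. All 6 tested cholangiocyte markers of 9 listed were below WT (median log2 fold change -2.19, none passing). Each marker had reads in at least 1 library. Their sums were 941.5, 456.7 and 535.9 CPM in WT and 128.8, 250.7 and 217.8 CPM in IRF8-cKO. WT-14 thus had the largest sum but the lowest Vdr value in WT. The sum weighs abundant markers most. The log2 deviation from each marker's mean over the libraries was therefore also averaged over the 6 tested markers. This mean log2 deviation was 0.86, 0.29 and 1.52 in WT and -1.42, -0.59 and -0.66 in IRF8-cKO. It was highest in WT-77, as was Vdr, and within IRF8-cKO both were highest in IRF8-cKO-88. Within WT it was lowest in WT-44, and Vdr in WT-14. Positive log2 fold changes were found for 7 of 11 hepatic stellate cell markers (median 0.07). The same held for 6 of 10 sinusoidal endothelial markers (median 0.06) and 2 of 8 monocyte and macrophage markers (median -0.68). The part of these cells in the Vdr values was not tested.

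**Figure D3:**
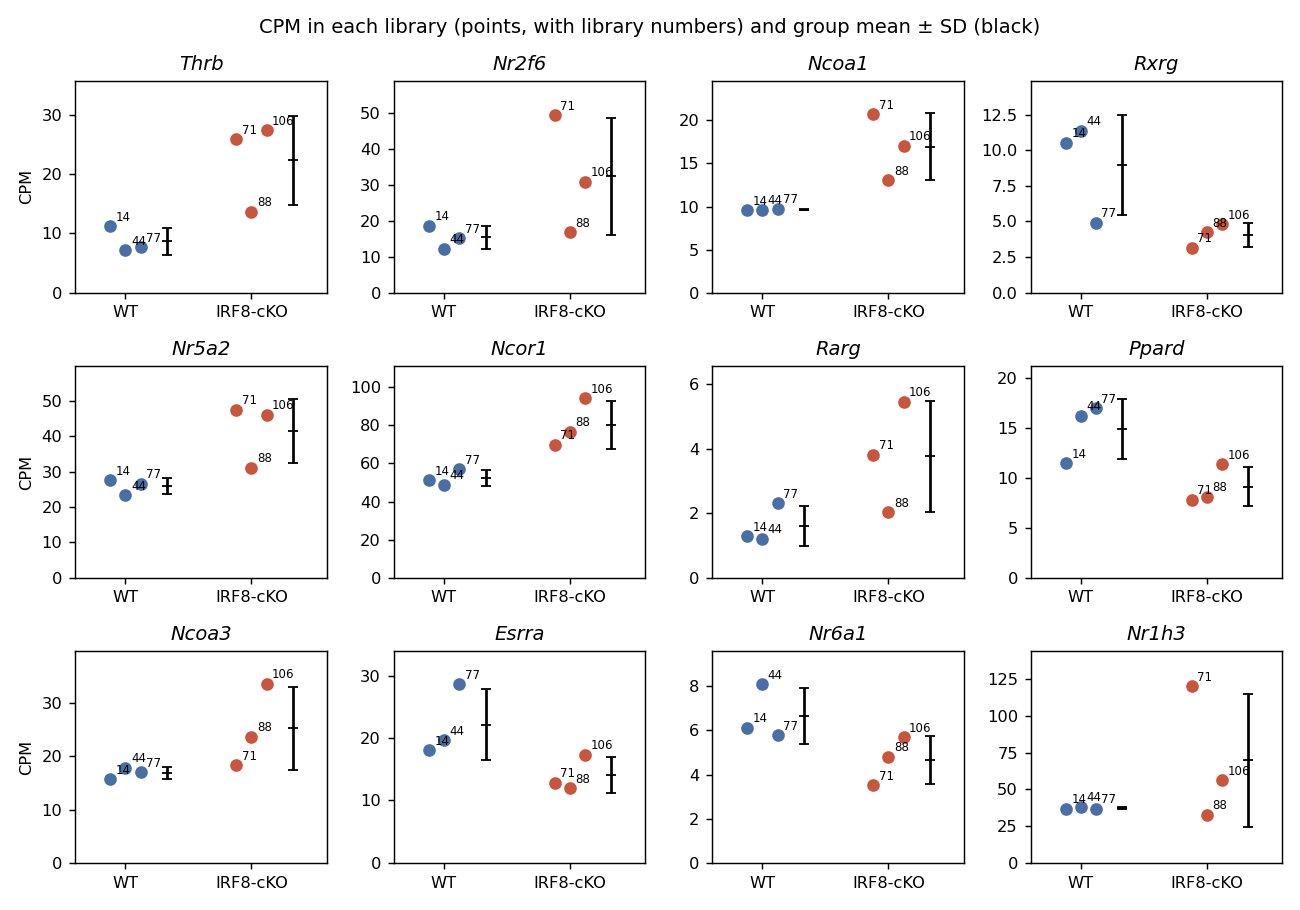
CPM of 12 receptors and coregulators in each of the 3 WT and 3 IRF8-cKO libraries (points with library numbers, vertical axes from 0, black bars for group mean ± SD). For Thrb, the IRF8-cKO libraries lie at 13.7 to 27.4 CPM and the WT libraries at 7.16 to 11.3 CPM, while the groups overlap for Nr2f6, Rarg and Nr1h3.

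Retinoid X receptors are the shared heterodimer partners. Rxra stood at 371.5, 234.9 and 296.9 CPM in WT and 426.9, 353.4 and 333.1 CPM in IRF8-cKO. The groups overlapped, and the log2 fold change was 0.30 (SE 0.30, edgeR adjusted p = 0.556). Rxrg, the least abundant of the 3, stood at 10.5, 11.4 and 4.91 CPM in WT and 3.14, 4.25 and 4.81 CPM in IRF8-cKO. All IRF8-cKO values were below all WT values, though IRF8-cKO-106 and WT-77 differed by little. The means were 8.94 ± 3.52 CPM (SD, n = 3) and 4.07 ± 0.851 CPM (SD, n = 3), a log2 fold change of -1.13 (SE 0.41, unadjusted p = 0.0200, edgeR adjusted p = 0.139). Rxrg made up 3.39% to 8.91% of the TPM of the 3 genes in WT and 1.57% to 2.94% in IRF8-cKO. Rxrb had a log2 fold change of 0.14 and differed little between libraries (23.9 to 30.2 CPM).

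Of the 5 lipid-sensing receptors, which bind DNA with a retinoid X receptor, Ppard and Nr1h3 differed most. Ppard, a fatty acid receptor expressed in many tissues, stood at 11.5, 16.2 and 16.99 CPM in WT and 7.82, 8.13 and 11.3 CPM in IRF8-cKO. The groups did not overlap, by a small margin between WT-14 and IRF8-cKO-106. Its log2 fold change was -0.71 (SE 0.31, unadjusted p = 0.0464, edgeR adjusted p = 0.201). Ppara, the fatty acid receptor that drives hepatic lipid oxidation, averaged 75.5 ± 14.7 CPM (SD, n = 3) in WT and 74.7 ± 32.4 CPM (SD, n = 3) in IRF8-cKO, a log2 fold change of -0.01 (SE 0.37). Pparg, the adipogenic receptor of the family, had a log2 fold change of -0.06, with the lowest library at 4.07 CPM (IRF8-cKO-106) and the highest at 9.67 CPM (IRF8-cKO-71).

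The oxysterol receptor Nr1h3 (liver X receptor alpha) stood at 36.9, 38.1 and 36.8 CPM in WT and at 120.3, 32.9 and 56.0 CPM in IRF8-cKO. The WT libraries were nearly equal, and IRF8-cKO-71 was far above every other library while IRF8-cKO-88 was below all of them. The log2 fold change was 0.90 (SE 0.42, edgeR adjusted p = 0.218), 0.27 without IRF8-cKO-71, and 1.24 without IRF8-cKO-88 (edgeR adjusted p = 0.0488). Nr1h3 is also known to define Kupffer cells, the resident macrophages of the liver. All 9 Kupffer cell markers had positive log2 fold changes (median 0.97, none passing, each marker with reads in at least 1 library). Their sums were 173.3, 197.0 and 215.6 CPM in WT and 459.8, 263.3 and 171.9 CPM in IRF8-cKO. The sum and Nr1h3 were both highest in IRF8-cKO-71, where 24.2% of all genes tested were highest. In the rest of the group they differed: within IRF8-cKO, IRF8-cKO-106 had the lowest sum and IRF8-cKO-88 the lowest Nr1h3 value. The sum in IRF8-cKO-106 was close to that in WT-14. The mean log2 deviation of the 9 markers was -0.20, -0.51 and -0.66 in WT and 0.97, 0.63 and -0.22 in IRF8-cKO. By that measure IRF8-cKO-106 lay above WT-44 and WT-77. The part of Kupffer cells in the Nr1h3 values was not tested. Nr1h2, the more widely expressed liver X receptor beta, had a log2 fold change of -0.33 (edgeR adjusted p = 0.459).

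The xenobiotic receptors Nr1i2 (PXR) and Nr1i3 (CAR) induce drug-metabolising enzymes. Nr1i2 stood at 46.5, 79.8 and 79.4 CPM in WT and 33.8, 53.5 and 43.9 CPM in IRF8-cKO. WT-14 lay among the IRF8-cKO libraries, while WT-44 and WT-77 were above them (log2 fold change -0.65, SE 0.31, edgeR adjusted p = 0.227). Nr1i3 stood at 3.67, 7.07 and 9.62 CPM in WT and 30.8, 3.82 and 6.43 CPM in IRF8-cKO, and is given because 1 library sets its direction. Its log2 fold change was 1.01 (SE 0.74, edgeR adjusted p = 0.426) with all libraries and -0.39 without IRF8-cKO-71. The exons of Nr1i3 overlap those of Tomm40l on the opposite strand over 3304 bases (74.9% of the Nr1i3 exons), so its count is uncertain. Tomm40l stood at 1.29, 1.98 and 2.92 CPM in WT and 4.19, 1.85 and 2.78 CPM in IRF8-cKO, and was likewise highest in IRF8-cKO-71.

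Hnf4a, which directs much of the hepatocyte programme, stood at 1009, 566.3 and 604.0 CPM in WT and 559.2, 1096 and 766.4 CPM in IRF8-cKO. Both the lowest and the highest library were IRF8-cKO, and the groups overlapped fully (log2 fold change 0.15, SE 0.37, edgeR adjusted p = 0.828). Nr5a2, a monomeric receptor of bile acid and acute phase gene control, stood at 27.7, 23.4 and 26.7 CPM in WT and 47.5, 31.2 and 46.2 CPM in IRF8-cKO. All IRF8-cKO libraries were above all WT libraries. The means were 25.9 ± 2.25 CPM (SD, n = 3) and 41.6 ± 9.08 CPM (SD, n = 3), a log2 fold change of 0.68 (SE 0.26, unadjusted p = 0.0270, edgeR adjusted p = 0.161), or 0.59 to 0.86 with a library left out. Nr6a1, the germ cell nuclear factor, stood at 6.12, 8.10 and 5.77 CPM in WT and 3.51, 4.81 and 5.69 CPM in IRF8-cKO. Those groups were separated only by the gap between WT-77 and IRF8-cKO-106 (log2 fold change -0.51, SE 0.36, edgeR adjusted p = 0.400). Rora, a monomeric receptor of the circadian loop, had a log2 fold change of -0.26, and Hnf4g, the close relative of Hnf4a, had at most 3 reads in any library.

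The COUP and testicular orphan receptors, known mostly as repressors, had positive log2 fold changes in 4 of 4 tested genes, with a median of 0.61 and none passing. Nr2f6 (ENSMUSG00000002393), an orphan COUP family receptor known as a repressor of cytokine genes in T cells, stood at 18.7, 12.2 and 15.1 CPM in WT and 49.3, 16.8 and 30.9 CPM in IRF8-cKO. IRF8-cKO-88 lay within the WT range, and the other IRF8-cKO libraries were above it. The log2 fold change was 1.07 (SE 0.38, unadjusted p = 0.0184, edgeR adjusted p = 0.137), 0.64 without IRF8-cKO-71 and 1.39 without IRF8-cKO-88 (edgeR adjusted p = 0.0282). Over 1622 bases, 54.4% of its exons, Nr2f6 overlaps Ocel1 on the opposite strand, which stood at 7.96, 6.64 and 6.30 CPM in WT and 22.1, 9.30 and 10.1 CPM in IRF8-cKO (0.99 on the log2 scale, SE 0.39). The reads of the pair cannot be told apart if strand was not used. Nr2c2 (0.77), Nr2f2 (0.44) and Nr2c1 (0.15) had smaller log2 fold changes. Nr2c2 shares 30.7% of its exons with Mrps25 on the opposite strand, and Nr2f1 had 1 to 19 reads per library, too few to test.

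Among the steroid and oestrogen-related receptors, Esrra, an orphan receptor of mitochondrial gene control, stood at 18.1, 19.7 and 28.6 CPM in WT and 12.9, 12.0 and 17.3 CPM in IRF8-cKO. The groups did not overlap, with WT-14 and IRF8-cKO-106 close together. Its log2 fold change was -0.65 (SE 0.30, edgeR adjusted p = 0.210). The glucocorticoid receptor Nr3c1 and the mineralocorticoid receptor Nr3c2 had log2 fold changes of 0.23 and 0.70, and the oestrogen receptor Esr1 had 0.70 (edgeR adjusted p = 0.330), all with overlapping groups. Esrrg, an oestrogen-related receptor, had 1 to 10 reads per library.

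The coregulators Ncor1, Ncoa1 and Ncoa3 all had higher CPM in the 3 IRF8-cKO libraries than in the 3 WT libraries. None passed the test, and 14.4% of all genes tested were separated in that direction. Of 27 other coregulators, 13 had positive and 14 negative log2 fold changes (median -0.22). Ncoa1, a p160 coactivator, stood at 9.55, 9.66 and 9.75 CPM in WT and 20.8, 13.1 and 17.1 CPM in IRF8-cKO. The WT libraries lay close together, and IRF8-cKO-88 was the nearest to them. The log2 fold change was 0.81 (SE 0.29, unadjusted p = 0.0188, edgeR adjusted p = 0.138) and ranged from 0.65 to 0.97 with a library left out. Ncor1, the corepressor that recruits histone deacetylase 3 to unliganded receptors, stood at 51.2, 48.7 and 57.0 CPM in WT and 69.7, 76.6 and 94.2 CPM in IRF8-cKO. Its lowest IRF8-cKO library was above its highest WT library (log2 fold change 0.62, SE 0.25, unadjusted p = 0.0356, edgeR adjusted p = 0.180). After correction for gene length the log2 fold change was 0.43 for Ncor1, 0.69 for Ncoa1, 0.43 for Ncoa3 and -0.36 for Ncoa2. Ncoa3, a p160 coactivator, stood at 15.7, 17.9 and 17.1 CPM in WT and 18.4, 23.7 and 33.6 CPM in IRF8-cKO, where WT-44 and IRF8-cKO-71 differed by little (log2 fold change 0.58, SE 0.29, edgeR adjusted p = 0.241). Ncoa2, the most abundant of the p160 genes by TPM in every library but IRF8-cKO-106, had a log2 fold change of -0.14 and overlapping groups.

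**Figure D4:**
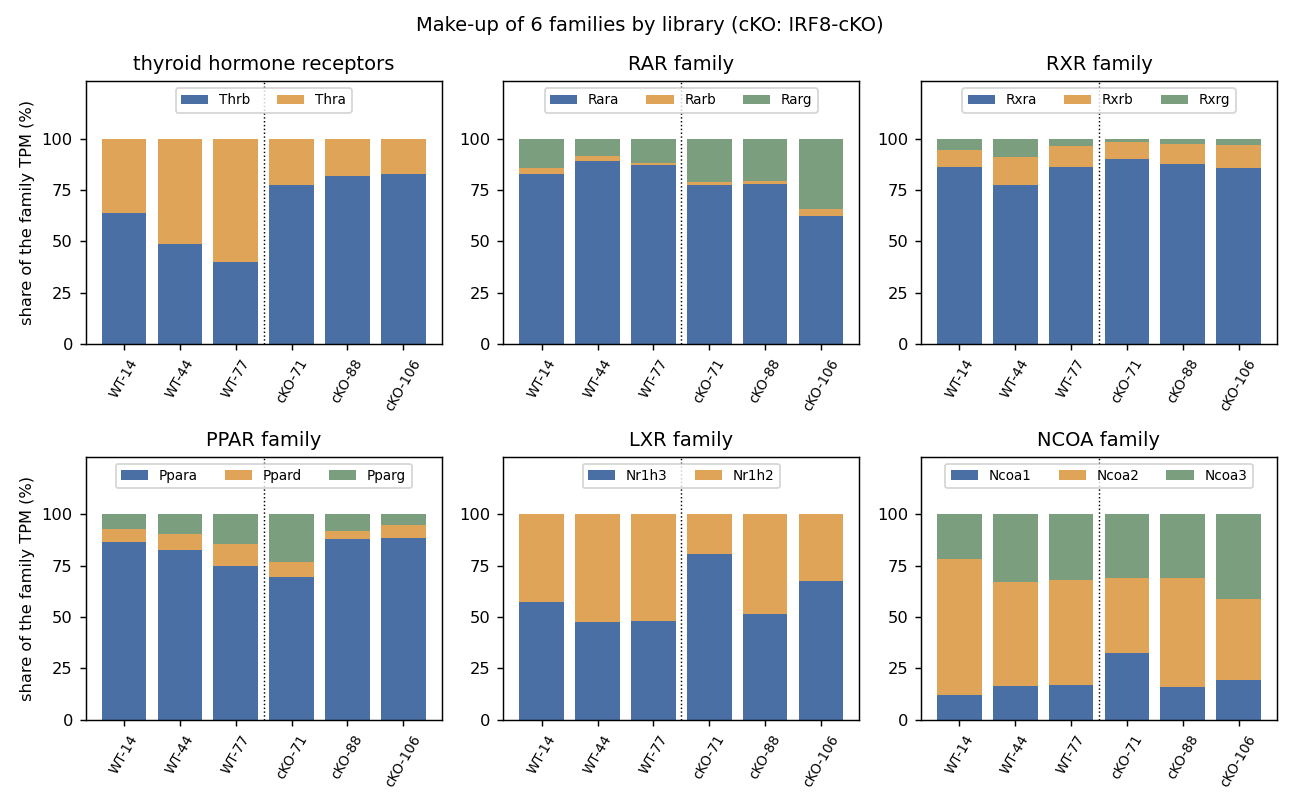
Stacked bars of the share of each receptor or coactivator in the summed TPM of its family (percent, vertical axis) in each of the 6 libraries, for 6 families, with a dotted line between WT and IRF8-cKO. Thrb holds 40.1% to 63.8% of the thyroid hormone receptor TPM in WT and 77.3% to 82.8% in IRF8-cKO, and Rarg, Rara and Rxrg shares also do not overlap between the groups.

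Promoter sequences were searched for letters that interferon regulatory factors and nuclear receptors are known to bind. RefSeq promoter windows (GRCm38.p6, 250 bases before to 50 after a start) were listed for 30 of the 35 genes, 50 windows in all. A repeat of GAAA and GAAA with 2 bases of any kind between them, the core of interferon-stimulated elements, was found on either strand in 2 of the 50 (4%), at Rarg and Esr1, beside 3.44% of all 32851 windows. The composite of GGAA and GAAA with the same spacing, which IRF8 binds with an ETS partner, was found in 0 of 50, beside 2.72% of all. The receptor hexamer AGGTCA was found in 9 of 50 (18.0%), at 8 genes, beside 16.3% of all. Both strands were searched for each motif, and no matches of different motifs overlapped in these 50 windows. The windows below show the hexamer at Thrb, Nr5a2 and Rxrg, members with non-overlapping groups and unadjusted p under 0.05, and the repeat at Esr1 and Rarg. Ppard, Ncor1 and Ncoa1 met the same criteria without a hexamer in their windows. Nr6a1, Pparg, Rara, Rarg and Rxra had the hexamer without meeting both criteria. Capitals mark the match, and each is written 5′ to 3′ on the strand of the gene. Thrb, Nr5a2, Rxrg and Esr1 are shown for the 250 bases before the start, Rarg for the 30 bases that end with its match after the start.
Thrb (chr14:17660710-17660959, plus strand): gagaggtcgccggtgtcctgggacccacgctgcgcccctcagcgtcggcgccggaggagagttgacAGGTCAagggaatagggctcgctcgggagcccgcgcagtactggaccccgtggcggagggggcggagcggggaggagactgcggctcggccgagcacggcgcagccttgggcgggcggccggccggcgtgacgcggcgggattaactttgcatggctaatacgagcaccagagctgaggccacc
Nr5a2 (chr1:136960449-136960698, minus strand): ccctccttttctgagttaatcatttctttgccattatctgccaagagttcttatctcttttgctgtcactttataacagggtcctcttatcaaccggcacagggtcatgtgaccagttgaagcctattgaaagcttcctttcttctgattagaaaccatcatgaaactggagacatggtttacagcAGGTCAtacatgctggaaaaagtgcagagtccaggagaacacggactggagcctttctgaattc
Rxrg (chr1:167618015-167618264, plus strand): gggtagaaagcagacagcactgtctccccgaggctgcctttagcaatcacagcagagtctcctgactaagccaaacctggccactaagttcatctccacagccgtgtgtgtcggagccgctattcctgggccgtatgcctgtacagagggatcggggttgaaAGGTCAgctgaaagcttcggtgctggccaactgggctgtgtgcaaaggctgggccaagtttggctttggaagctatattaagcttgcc
Esr1 (chr10:4611739-4611988, plus strand): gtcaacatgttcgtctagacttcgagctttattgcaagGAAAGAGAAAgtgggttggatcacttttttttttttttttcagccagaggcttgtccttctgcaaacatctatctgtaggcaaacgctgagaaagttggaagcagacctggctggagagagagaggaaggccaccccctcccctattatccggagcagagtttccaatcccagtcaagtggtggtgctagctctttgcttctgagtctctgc
Rarg (chr15:102257490-102257519, minus strand): gtggggggggtagggagggaGAAAAAGAAA
In these windows the first base of the match lay at -184 from the start at Thrb, -64 at Nr5a2, -88 at Rxrg and -212 at Esr1, and 24 bases into the transcript at Rarg. These matches describe letters only. No binding was measured in these samples, and the shares of windows with a match were near those of all promoters.

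Genes known as targets or partners of the receptors were taken from lists compiled from general knowledge with earlier results in view. Of the PPARA target list, 34 of 35 were tested, 1 rose and 2 fell, and 24 had positive log2 fold changes (median 0.60). Ehhadh, a peroxisomal oxidation enzyme, rose from a mean of 411 to 1695 CPM (log2 fold change 2.04, SE 0.40, edgeR adjusted p = 0.0446). Fabp1, the liver fatty acid binding protein, fell, with means of 2797 CPM and 703 CPM (-1.99 on the log2 scale, SE 0.35, edgeR adjusted p = 0.0408). Angptl4, a secreted inhibitor of lipoprotein lipase, fell, with means of 1799 CPM and 466 CPM (log2 fold change -1.95, SE 0.37, edgeR adjusted p = 0.0446). Genes of this list moved in both directions. Ppara averaged almost the same in both groups but varied between libraries. It stood at 79.6, 87.7 and 59.2 CPM in WT and 38.0, 99.3 and 86.9 CPM in IRF8-cKO. The mean log2 deviation of the 34 tested targets was -0.49, -0.13 and 0.06 in WT and -0.21, 0.63 and 0.15 in IRF8-cKO. A link between Ppara and these genes was not tested. Liver X receptor targets gave 0 of 16 passing and a median of 0.16, with Abcg5, a sterol exporter, at -1.19 (edgeR adjusted p = 0.0705) and Srebf1, the lipogenic regulator, at -1.42 (edgeR adjusted p = 0.0861) the closest.

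Of the 27 names of HNF4A targets reported here, 26 were in the count table, and all 26 were tested. Negative log2 fold changes were found for 21 (median -0.60), which describes these genes and not the whole list. Otc, a urea cycle enzyme, was at -1.04 (edgeR adjusted p = 0.111) and Ttr, the plasma carrier of thyroxine and retinol binding protein, at -1.05 (edgeR adjusted p = 0.129). Hepatocyte markers, of which Apoa1 and Ttr among others are also in this list, had negative log2 fold changes in 9 of 11 (median -0.36, none passing). Of 21 gene names listed as glucocorticoid receptor targets, 20 were in the count table. All 20 were tested, 0 rose and 1 fell (median -0.70). Gadd45b, a stress-inducible gene, fell, with means of 131 CPM and 14.8 CPM (log2 fold change -3.15, SE 0.55, edgeR adjusted p = 0.0420).

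CAR and PXR targets gave 0 of 27 tested passing (median -0.37), with Cyp1a2 at -0.89 (edgeR adjusted p = 0.118) and Ces2a at -0.70 (edgeR adjusted p = 0.176) the closest. Thyroid hormone receptor targets gave 0 of 11 (median -0.01). Fasn, the fatty acid synthase, was at 1.05 (edgeR adjusted p = 0.125) and Thrsp, a lipogenic gene induced by thyroid hormone, at -1.70 (edgeR adjusted p = 0.162), with 192.7, 256.2 and 159.1 CPM in WT and 17.8, 131.6 and 37.5 CPM in IRF8-cKO. Of the 11 tested genes, 5 had positive and 6 negative log2 fold changes. The list covers thyroid hormone receptors in general, and a link to the Thrb values was not tested. Of the retinoic acid receptor targets reported here, 9 were tested (median -0.14), with the retinol esterifying enzyme Lrat at 1.86 (edgeR adjusted p = 0.0952) and Cyp26b1, which degrades retinoic acid, at 3.75 (SE 1.29, edgeR adjusted p = 0.137). Without IRF8-cKO-106, which had 25.8 CPM, the log2 fold change of Cyp26b1 was 0.81.

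Of 18 other nuclear receptors, 9 were tested and 7 had negative log2 fold changes (median -0.73). Nr1d1, the circadian repressor REV-ERB alpha, was the 1 that fell, with 45.5, 92.9 and 111.3 CPM in WT and 13.1, 17.9 and 17.7 CPM in IRF8-cKO. All IRF8-cKO values lay below all WT values (log2 fold change -2.36, SE 0.36, edgeR adjusted p = 0.0312). In the other direction, and named after its values were seen, the bile acid receptor Nr1h4 stood at 21.7, 27.1 and 31.7 CPM in WT and 184.2, 34.4 and 70.2 CPM in IRF8-cKO. The groups did not overlap, and IRF8-cKO-71 was far the highest (log2 fold change 1.84, SE 0.54, edgeR adjusted p = 0.0955). The log2 fold change of Nr1h4 was 0.97 without IRF8-cKO-71 and 2.25 without IRF8-cKO-88 (edgeR adjusted p = 0.0112). Among 27 other coregulators 0 passed (median -0.22), with Trim24 at -0.76 (edgeR adjusted p = 0.131) and Carm1 at 0.70 (edgeR adjusted p = 0.157) the closest. The genes reported here as called in these lists were Ehhadh, Fabp1, Angptl4, Gadd45b and Nr1d1. None of them passed without WT-44, without WT-77 or without IRF8-cKO-106, when 1, 0 and 20 genes of the whole table passed.

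**Figure D5:**
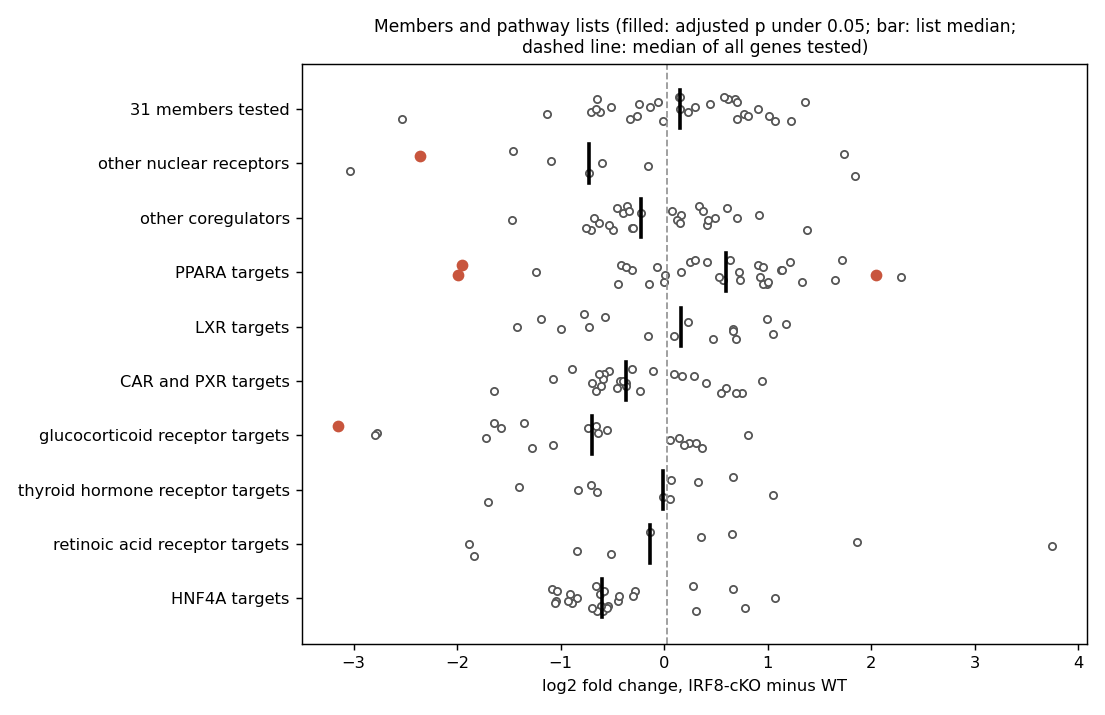
Log2 fold change (IRF8-cKO over WT) of the 31 tested receptors and coregulators and of each tested gene in 9 lists of targets and partners, with bars at list medians, filled points at edgeR adjusted p under 0.05 and a dashed line at the median of all genes tested. The medians run from -0.73 for other nuclear receptors to 0.60 for PPARA targets.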

How the data were processed

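The authors deposited raw counts, whole numbers per gene, for 54532 genes in 6 libraries, with gene lengths. Per the submitters' processing notes, HISAT2 2.0.5, featureCounts 1.5.0-p3 and mm10 were used. The kit was NEBNext Ultra RNA, per the labels' protocols. Annotation release, strand setting and treatment of multimapping reads: not given in the sources used here.

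Groups came from the titles. Pairs of libraries within a group differed by more than counting error (chi-square divided by its degrees of freedom, 69.9 to 246), so none was counted as a copy. The number of count columns without a sample was 0. The comparison used edgeR 4.0.16 (R 4.3.3) with TMM scaling, filterByExpr (minimum count 10, minimum total 15), which left 13134 of 24095 genes with a read, and a robust quasi-likelihood fit, two-sided, with p-values adjusted by Benjamini-Hochberg across the 13134 tested genes and called at 0.05. The biological coefficient of variation was 37.1%, and 3 libraries a group limit the precision. The fit was tested on simulated data. TPM, reads per kilobase and family shares were computed from the counts and the deposited lengths, and shares were compared by exact permutation. Alternatives used DESeq2 1.42.0, limma 3.58.1 (voom), other scalings and filters, a length correction and each library left out. The coordinates of 33 of the 35 genes equal those in GENCODE M21, which gave exon overlaps.

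Values for every library are given for genes with an unadjusted p under 0.05, non-overlapping CPM or the highest TPM in a role, and for Irf8. From each list, genes with an adjusted p under 0.05, or else the 2 with the lowest p, are named. From each of the HNF4A and retinoic acid receptor target lists 1 gene was left out, regardless of its values, and is not reported here, so no count of called genes is given for these lists. The genes and lists were chosen with earlier results of these data known.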

Additional observations from a re-analysis of the deposited data

How the results depend on the processing

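No paired analysis was possible because no library number occurs in both groups. Genes higher in IRF8-cKO numbered 59 in the edgeR test, 39 with library totals alone, 817 with no low-count filter, 613 by DESeq2, 38 by limma-voom, 292 by limma-voom with library weights, 18 with the length correction and 0 to 575 with a library left out. Genes lower numbered 123, and under the same alternatives 43, 906, 810, 111, 395, 54 and 0 to 630. Of the receptors and coregulators, 0 were higher in the edgeR test, 2 with no filter, 1 by DESeq2, 1 by limma-voom with library weights and 0 to 3 with a library left out, and 0 were lower, 1 with no filter and 0 to 1 with a library left out. With no filter these were Thrb and Nr2f6 (higher) and Vdr (lower), and 7.15% of all genes passed. Of the target and partner genes reported here, 1 rose in the edgeR test, 18 with no filter, 11 by DESeq2, 5 with library weights, 0 with the length correction and 0 to 7 with a library left out. The 4 that fell became 2 with library totals, 19 with no filter, 19 by DESeq2, 9 with library weights, 1 with the length correction and 0 to 14 with a library left out. The median log2 fold change of the 31 tested genes was 0.15, 0.39 with library totals, 0.26 over all 35 with no filter and 0.10 to 0.20 with a library left out. Library totals alone moved the median of all genes from 0.03 to 0.25.

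Signs turned for several genes near 0 and for Nr1i3, at 1.01 with all libraries. With library totals alone the log2 fold change was 0.25 for Ppara, 0.13 for Pparg, 0.0014 for Rara and 0.055 for Ncoa2. With no filter that of Ppara was 0.0098. With library weights it was 0.16 for Ppara, -0.071 for Nr1i3 and 0.092 for Ncoa2. With a library left out it ranged from -0.27 to 0.31 for Ppara, from -0.36 to 0.23 for Pparg, from -0.50 to 0.0702 for Rara, from -0.13 to 0.47 for Hnf4a, from -0.52 to 0.0753 for Rora, from -0.36 to 0.18 for Ncoa2 and from -0.39 to 1.45 for Nr1i3. The cause was not tested. The other tested receptors and coregulators kept the sign of their log2 fold change in every alternative that was run. Genes with few reads, such as Vdr and the 4 untested ones, are limited by depth. For Vdr, the counts of 0 in IRF8-cKO-71 and IRF8-cKO-106 stood beside 10, 22 and 36 reads in WT and 14 in IRF8-cKO-88. Whether they reflect more than counting error was not tested.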
